A study of Rattus norvegicus with 8 samples.

Results

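The microRNA response of rat Sertoli cells to the compound labelled MBP was read in 2 pairs of arrays that shared no array. The microRNA table held 1166 rat rows, of which 680 were mature microRNAs and the rest hairpins (the stem-loop precursors). Mature rows were kept where the 4-array mean of the log2 signal reached the median of the mature rows, 1.35, which left 340. Of these, 108 carry a star in their name, the older name for the arm of a hairpin that is usually the less abundant, and 232 do not. Just outside the filter lay miR-20a-star, with a mean of 1.345, and miR-3585-5p, with 1.31. Just inside it lay miR-133b, at 1.347, and miR-511-star, at 1.348.

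Sertoli cells, the somatic cells that support germ cells in the seminiferous tubule, were isolated from digested rat testes and kept as primary cultures in DMEM/F12 with 10% fetal bovine serum. For 24 hours they received solvent (control), NP at 0.1 µM, MBP at 0.1 mM, or both compounds at those doses (NP+MBP). The labels leave the abbreviations unexplained and give no strain, age or number of animals or cultures, and no deletion or transgene is named. Total RNA of each group was put on 1 microRNA array and, as a separate sample, on 1 gene-level array. The pairs were MBP minus control, without NP, and NP+MBP minus NP, with NP on both sides. No group had a replicate, so every mean ± SD over the pairs (n = 2) also holds any true dependence of the MBP difference on NP. Precision is limited by the number of arrays. Less RNA of a microRNA per cell and fewer cells that express it cannot be told apart in such arrays.

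A microRNA is cut from a hairpin by Drosha in the nucleus and by Dicer in the cytoplasm. The strand loaded into an Argonaute protein guides it to messenger RNAs that pair with the seed near the 5′ end of the microRNA, and the other strand is usually degraded. In Sertoli cells, deletion of Dicer in mice leads to loss of spermatogenesis.

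The sequences that the results turn on are shown first, 5′ to 3′, from RefSeq's rat assembly GRCr8. In the first set, capitals mark the seed, bases 2 to 8. These are 4 of the 5 microRNAs that were at least 2-fold higher with MBP in both pairs, and no 2 of them share a seed.
miR-7a: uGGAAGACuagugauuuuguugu
miR-872: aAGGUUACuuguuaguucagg
miR-450a: uUUUGCGAuguguuccuaaugu
miR-742: gAAAGCCAccauguuggguaaa
The copy of miR-7a within the span of Hnrnpk lies at chr17:6278710-6278732 on the plus strand. miR-872 lies at chr5:114654833-114654853, plus strand, within Ift74. miR-450a lies at chrX:137720985-137721006 and miR-742 at chrX:150451582-150451603, both on the minus strand.

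The second set holds star forms of the miR-466 family, 3 of the 5 microRNAs that were at least 2-fold lower with MBP in both pairs. Capitals mark the 11 bases that all 3 share.
miR-466b-1-star: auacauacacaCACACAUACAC
miR-466b-2-star: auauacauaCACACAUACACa
miR-466c-star: uauacaugCACACAUACACac
They lie on the minus strand at chr17:72945512-72945533, chr17:72942475-72942495 and chr17:72927610-72927630, all within the span of Sfmbt2. Aligned without gaps, they were 81.0% to 90.5% identical to each other, so their probes may read each other's RNA, and these rows are not independent measurements.

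Values are listed for the control, NP, MBP and NP+MBP arrays in turn, as log2 signal, and a difference of 1 on this scale is 2-fold. miR-7a, which in mammals targets Egfr and Irs transcripts, stood at 1.87, 1.49, 3.48 and 2.99. Both arrays with MBP were above both arrays without it, and the difference was 1.61 without NP and 1.498 with NP (1.55 ± 0.08). miR-872 stood at 3.42, 2.40, 4.47 and 3.59, and miR-455, a microRNA of cartilage whose gene lies in Col27a1, at 3.09, 2.68, 4.35 and 3.71. For both of them the arrays with MBP were again the higher ones in each pair and over all 4 arrays. miR-450a, of the X-linked cluster that also encodes miR-322 and miR-503, stood at 2.72, 1.46, 3.75 and 2.49. Its differences were 1.03 and 1.03, but the groups overlapped, because the control array lay above the NP+MBP array. miR-742 stood at 2.21, 2.35, 3.22 and 3.55, with differences of 1.003 and 1.20 and no overlap.

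On the lower side, miR-466b-1-star stood at 8.06, 8.25, 6.80 and 6.63, miR-466b-2-star at 5.76, 5.34, 4.58 and 3.73, and miR-466c-star at 6.97, 7.35, 5.78 and 6.14. Every array with MBP lay below every array without it in these 3 rows. The mean differences were -1.44 ± 0.25, -1.40 ± 0.30 and -1.20 ± 0.02. miR-32-star, from the hairpin of miR-32 within Tmem245, stood at 3.61, 3.83, 2.38 and 1.35 (-1.85 ± 0.88). miR-195-star, whose guide belongs to the miR-15/16 family of cell cycle regulators, stood at 2.34, 1.87, 1.06 and 0.76 (-1.20 ± 0.12). The groups did not overlap in either.

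**Figure D1:**
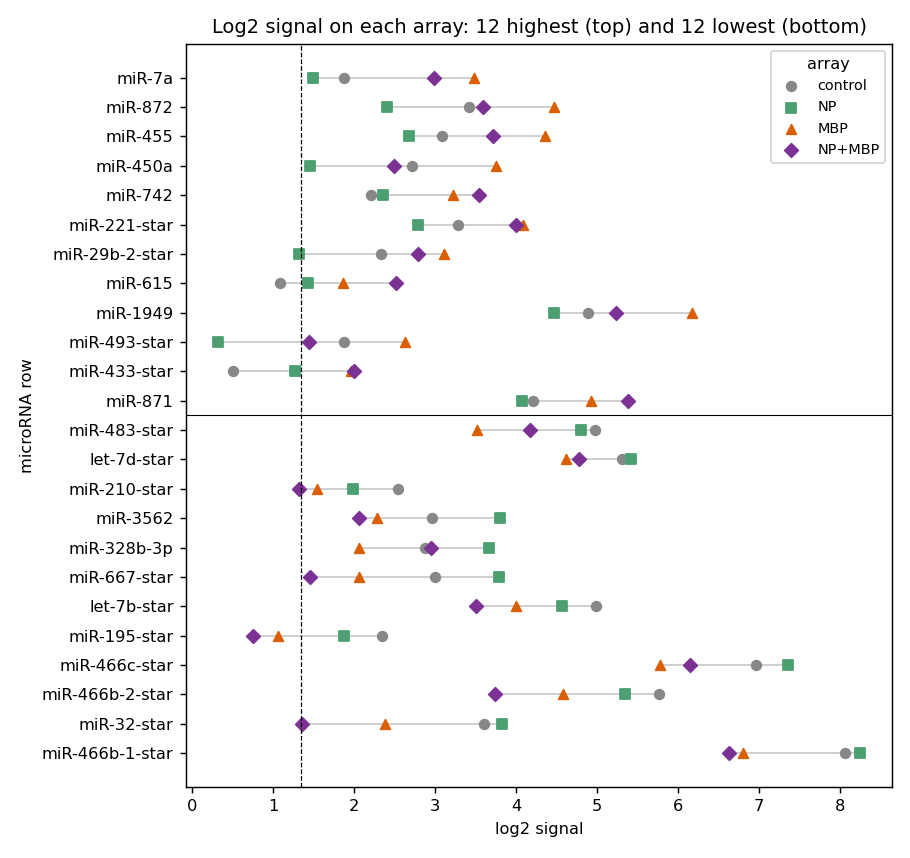
Log2 signal of the 12 highest and 12 lowest microRNAs by the smaller of their differences in the 2 pairs, 1 marker per array, with a grey line over the range and a dashed line at the filter of 1.35. The MBP markers (triangles and diamonds) lie apart from the others in 21 of the 24 rows, to the right in 10 and to the left in 11. The rows were chosen by these differences, so their separation is no support. Over all 680 mature rows, the MBP arrays lay apart on the higher side in 23.5% and on the lower side in 11.5%.

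These were the 10 microRNAs at least 2-fold apart in the same direction in both pairs. Between MBP and control, 21 members were higher and 7 lower by 2-fold, against a background of 3.97% and 1.62% of the 680 mature rows. Between NP+MBP and NP, 21 were higher and 19 lower (background 4.71% and 2.94%). In both pairs, 5 were higher and 5 lower, and each of these is 0.735% of the 680 rows, because no row below the filter passed in both. All 5 lower ones are star forms and none of the 5 higher ones is. miR-195-star lay below the filter of 1.35 on both MBP arrays, and with values under the filter set to it, 4 lower ones remained, all stars. At 1.5-fold in both pairs, 21 were higher (background 4.26%), 6 of them stars, and 13 were lower (background 2.5%), 10 of them stars. In a single pair at 1.5-fold, 57 were higher and 21 lower in MBP minus control (background 13.4% and 6.91%), and 52 and 36 in NP+MBP minus NP (background 12.2% and 9.26%). The star split is a description with no test. The median probe signal, which also depends on the probe, was 4.14 for stars and 6.26 for the others. In these hairpins the star was not always the dimmer arm. Mean signals were 7.43 for miR-466b-1-star and 4.70 for miR-466b, 8.54 for miR-455-star and 3.46 for miR-455. They were 5.47 for miR-872-star and 3.47 for miR-872, but 1.51 for miR-195-star and 8.64 for miR-195. Beside miR-7a, at 2.46, its star rows stood at 3.54 and 1.58.

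In 4 members both arrays without MBP lay below the filter, and in 4 both arrays with MBP, so that these passed it only through the other arrays and their differences are no support. miR-433-star, miR-429 and miR-154-star are of the first kind and miR-195-star of the other.

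The rest of the 12 highest, ranked by the smaller of their 2 differences, were miR-221-star, miR-29b-2-star, miR-615, miR-1949, miR-493-star, miR-433-star and miR-871. Their mean differences lay between 0.93 for miR-615, encoded within the span of Hoxc5, and 1.12 for miR-29b-2-star, a partner of the collagen-repressing miR-29 microRNAs. miR-221-star stood at 3.28, 2.79, 4.08 and 3.995, without overlap. miR-493-star, from the imprinted Dlk1-Dio3 domain, stood at 1.87, 0.32, 2.63 and 1.44, and there the groups overlapped. The rest of the 12 lowest were let-7b-star, miR-667-star, miR-328b-3p, miR-3562, miR-210-star, let-7d-star and miR-483-star, from -0.67 for let-7d-star to -1.63 for miR-667-star. miR-328b-3p, at 2.88, 3.67, 2.06 and 2.95, was the sole one of the 12 lowest whose groups overlapped. Since both pairs chose these 24, the like signs in the pairs are fixed by that choice.

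**Figure D2:**
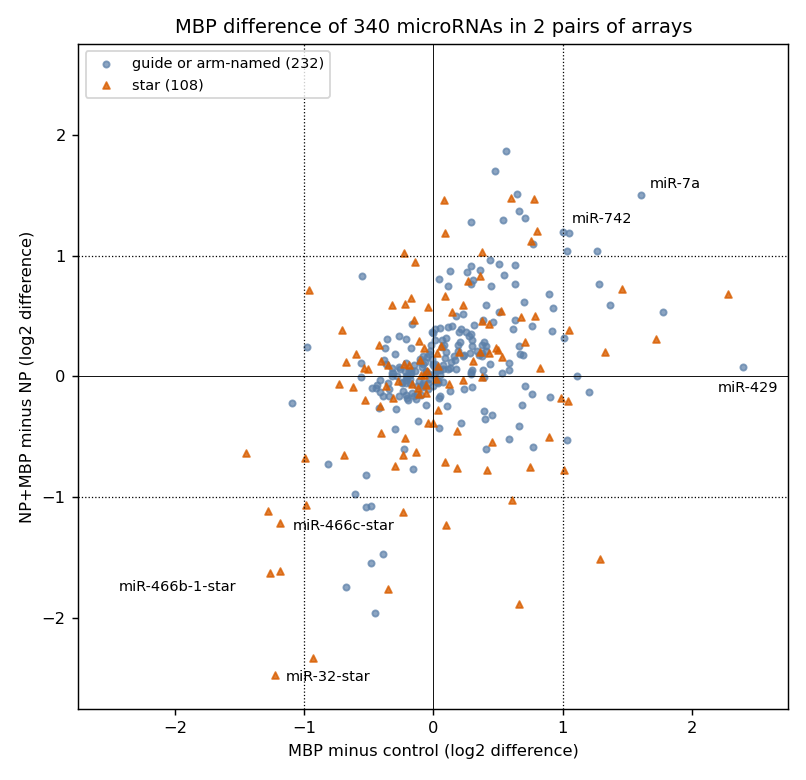
Log2 difference of each of the 340 microRNAs in MBP minus control (horizontal) and in NP+MBP minus NP (vertical), with star forms as triangles and dotted lines at 2-fold. The 5 points in the lower left corner are all stars, and the 5 in the upper right corner are not.

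Across the 340 microRNAs the differences of the 2 pairs correlated with r = 0.43, and those of the NP pairs (NP minus control, NP+MBP minus MBP) with r = 0.17. The points share the 4 arrays and the probe chemistry, and microRNAs are not replicates. A difference of the same sign in both pairs, of any size, was seen upward in 140 members (background 32.6%) and downward in 83 (background 23.2%). Over the whole of the members, both MBP arrays lay above both others for 102 members (background 23.5%) and below both for 45 (background 11.5%), and for 193 the groups overlapped. The NP pairs had 0 members at least 2-fold higher in both (background 0.0%) and 3 lower (background 0.588%).

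Differences were wider at low signal. Among the 85 dimmest members the SD of the differences was 0.71 in MBP minus control and 0.93 in NP+MBP minus NP. Among the 85 brightest, with mean signals from 8.21 to 13.92, it was 0.23 and 0.15, and no member there reached 2-fold in either pair. The correlation between the pairs was 0.40 in the dimmest 85 and 0.64 in the brightest 85. miR-7a, miR-742 and miR-195-star were among the dimmest 85, and miR-466b-1-star and miR-466c-star in the class next to the brightest.

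limma's additive model, with 1 term for each compound, fitted to all 1166 rows with 1 residual degree of freedom, called 0 of the 340 members at an adjusted p under 0.05 (background 0.0%). The smallest adjusted p was 0.541, and 43 members had an unadjusted p under 0.05. Every difference above is therefore a value that did not pass the test. An exact permutation test of 2 arrays against 2 cannot go below p = 0.333. With each array centred on its median, the same limma model called 4 members, miR-7a higher and miR-32-star, miR-466b-1-star and miR-466b-2-star lower, with a smallest adjusted p of 0.034. It called none after quantile or cyclic loess normalization, where the count of microRNAs 2-fold higher in both pairs was 1 instead of 5 and the lower count 7 instead of 5.

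A cluster of microRNA genes on the X chromosome was mostly higher on the arrays with MBP. Its 12 genes, from Mir743a to Mir465, lie on the minus strand at chrX:150444098-150488232, a stretch of 44.1 kb, and rodent microRNAs of this region are known for expression in testis. The table had 23 mature rows for them, and 11 passed the filter. Of these 11, 9 were higher with MBP in both pairs, 1 was lower in both and 1 was opposite. Over all 340 members 41.2% were higher and 24.4% lower in both pairs (background 32.6% and 23.2% of the 680 mature rows). For all 9, both arrays with MBP lay above both arrays without it, also under each scaling that was run. That held for 30% of the 340 members (background 23.5%). The median difference over the 11 was 0.54 without NP and 1.03 with NP, beside 0.04 and 0.07 over all 340 members.

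miR-741-3p stood at 6.10, 5.73, 6.54 and 6.70. miR-743a stood at 5.65, 5.52, 5.96 and 6.32, and miR-878 at 5.07, 4.49, 5.60 and 5.78. In each of the 3 the lower MBP array still exceeded the higher array without MBP. miR-871 stood at 4.21, 4.07, 4.92 and 5.38, and its star form at 5.34, 5.12, 5.72 and 6.15, so both arms of that hairpin were on the same side. miR-463 stood at 3.73, 3.88, 4.74 and 4.20, miR-743b at 1.87, 1.70, 2.52 and 3.21, and miR-465 at 1.76, 1.40, 2.43 and 2.77. The exceptions were miR-881, at 1.28, 1.75, 0.72 and 1.74, and miR-883-star, at 1.90, 2.92, 2.09 and 2.16. Except in miR-463, the difference of each of the 9 was larger in the pair with NP, which was not tested. The next set shows how alike members of the cluster are, with a shared stretch of 10 bases in capitals.
miR-743b: gaaagaCACCAUACUGaauaga
miR-878: gcaugaCACCAUACUGgguaga
miR-871-3p: ugacuggCACCAUACUGgauaa
They lie on the minus strand at chrX:150444588-150444609, chrX:150474263-150474284 and chrX:150478590-150478611. miR-743b and miR-878 were 81.8% identical, and each was 72.7% identical to miR-871-3p. That arm was not assigned to the miR-871 or the miR-871-star row of the array. Some probes of the cluster may therefore also read each other's RNA.

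**Figure D3:**
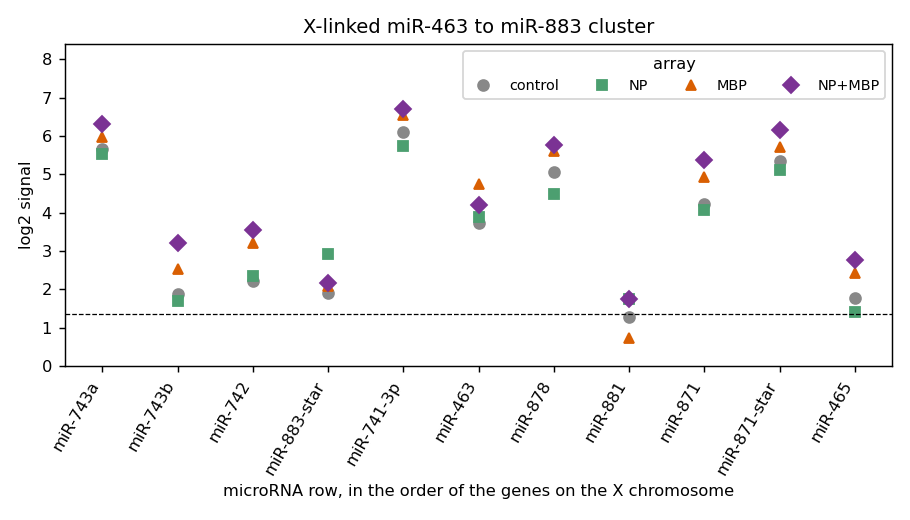
Log2 signal of the 11 members of the X-linked cluster on each of the 4 arrays. In 9 of the 11 both arrays with MBP lie above both arrays without it, and miR-881 and miR-883-star are the exceptions.

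Members of this cluster also serve as markers of germ cells, which a culture from digested testis can hold. Of 19 germ cell marker rows, 12 of which belong to the cluster, 11 passed the filter, 5 higher and 3 lower in both pairs, close to the shares of 41.2% and 24.4% over all 340 members. The summed linear signal of the 19 was 275 and 265 on the arrays without MBP and 292.7 and 352 on those with it. miR-34c, abundant in meiotic and later germ cells, stood at 5.90, 5.78, 5.62 and 5.78, and miR-34c-star at 5.67, 5.73, 5.35 and 5.55, both without an excess on the MBP arrays. miR-449a, of the same seed family, stood at 2.23, 0.91, 2.52 and 2.19. The part of germ cells in the cluster's difference was not tested.

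Star and guide of the same hairpin often differed in different ways. Among 88 hairpins with both arms above the filter, the mean difference had the same sign in both arms for 51 (58.0%), and the correlation between arms was 0.28. let-7b, of the let-7 family that restrains Lin28 and Hmga2, stood at 13.72, 13.73, 13.53 and 13.78, while let-7b-star stood at 4.98, 4.56, 4.00 and 3.50. The guide arrays overlapped, and the star was lower by 0.98 and 1.06. let-7d stood at 13.185, 13.24, 13.10 and 13.16, and let-7d-star at 5.31, 5.42, 4.62 and 4.77, again with no overlap for the star. Both MBP arrays of the guide let-7d also lay below the others, by 0.08 and 0.07 within the pairs. The difference between arms was not tested.

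In other hairpins the arms differed from each other in direction or only in size. miR-195 stood at 8.60, 8.48, 8.83 and 8.65, against the lower star above. miR-210, the microRNA induced by hypoxia, stood at 7.97, 8.23, 7.82 and 8.07, with differences of -0.15 and -0.16. miR-210-star was lower as well, at 2.54, 1.99, 1.54 and 1.31, by larger amounts. miR-455 was higher with MBP while miR-455-star stood at 8.74, 8.70, 8.11 and 8.62, lower in both pairs. miR-221, a repressor of Cdkn1b and the partner of the higher miR-221-star, stood at 12.10, 12.04, 12.17 and 11.99. miR-872-star, at 5.42, 5.18, 5.95 and 5.34, was above its pair partner on both MBP arrays, as miR-872 was. miR-466b, at 4.70, 5.35, 3.61 and 5.13, was lower in both pairs like its stars, by 1.10 without NP and 0.22 with it.

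**Figure D4:**
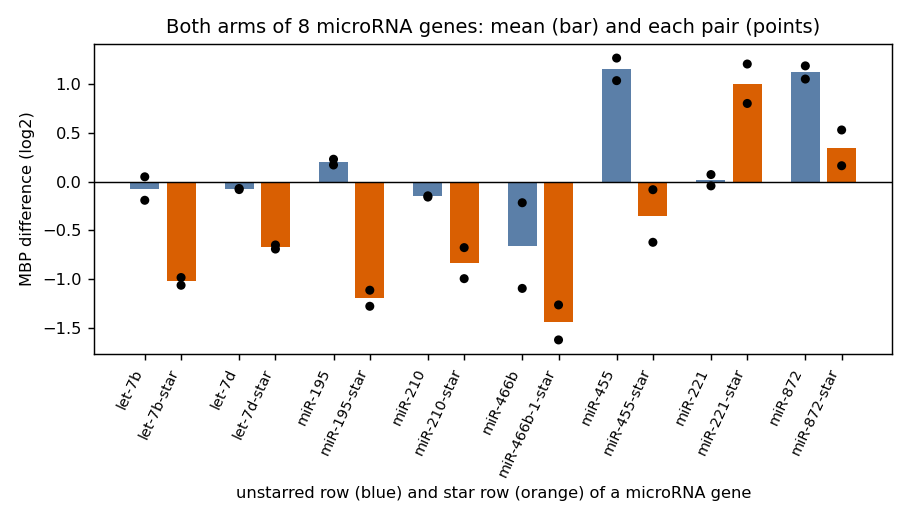
MBP difference on the log2 scale of the unstarred form (blue) and the star form (orange) of 8 microRNAs, as the mean of the pairs (bars) and each pair (points). let-7b-star stands at -0.98 and -1.06, and let-7b close to 0.

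The lower let-7 stars resembled another low row in sequence, and these forms are shown with the 6 bases they share in capitals.
let-7b-star: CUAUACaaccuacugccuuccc
let-7d-star: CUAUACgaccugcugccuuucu
miR-3596a: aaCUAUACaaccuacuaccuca
They lie at chr7:118684098-118684119, chr17:16322327-16322348 and chr8:50805219-50805240. miR-3596a ranked just after the 12 lowest and was singled out after its values were seen, at 2.07, 1.81, 1.46 and 0.84. Its sequence was the exact reverse complement of let-7a-5p (100% of its bases), and any part of let-7a in its signal was not tested. It was 77.3% identical to let-7b-star and 68.2% to let-7d-star. The 6 bases in capitals also begin let-7e-star, which was higher with MBP, by 0.14 without NP and 0.53 with NP. Over the whole let-7 and miR-98 list, 12 members passed the filter, with 3 higher, 4 lower and 5 opposite between the pairs, and a median mean difference of -0.04.

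Other lists were described by the same counts over members. These are to be read against 41.2% higher and 24.4% lower in both pairs over all 340 members. Over the 680 mature rows the shares were 32.6% and 23.2%. All 4 members of the list of miR-466, miR-297 and miR-467 were lower in both pairs under each scaling run, with a median of -1.30. Rows of this list below the filter were mixed. miR-466c, the partner of miR-466c-star, differed by 0.18 and 1.48, miR-297 by 0.10 and 0.53, and miR-466d by -0.12 and -0.47. All 4 members of the miR-29 list were higher in both pairs, with a median of 0.32, but 2 after quantile and 3 after cyclic loess normalization. Of the miR-10 list, Hox-cluster microRNAs, 3 of 3 were higher with a median of 0.42, and 2 of 3 after cyclic loess. Of the miR-30 list 7 of 10 were higher, 0 lower and 3 opposite, with a median of 0.23. Of the miR-17 family, which promotes proliferation, 8 of 18 were higher, 0 lower and 10 opposite, with a median of 0.16. The share of higher ones in that family was close to that over all members. Its median difference was -0.07 without NP and 0.20 with NP. After cyclic loess normalization, 1 of the miR-30 list and 2 of the miR-17 family were lower in both pairs.

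The cluster of miR-450a with miR-322, miR-503 and miR-542 had 9 members, 4 higher and 2 lower, and 4 and 4 after cyclic loess. miR-322 stood at 6.79, 6.61, 7.71 and 6.99, so the array with MBP alone was the highest. miR-542-3p stood at 1.53, 0.19, 2.09 and 2.06. In the miR-379 to miR-410 list of the imprinted Dlk1-Dio3 domain, 37 members passed, 16 higher, 8 lower and 13 opposite, with a median of 0.12. After quantile normalization 13 were higher and 10 lower, and after cyclic loess 12 and 12, with a median of 0.008. The extremes of this list were stars, miR-154-star at 0.88, 1.20, 3.16 and 1.87 and miR-667-star at 3.0, 3.79, 2.07 and 1.46. Its bright guides differed little, such as miR-494 at 9.84, 9.85, 9.71 and 9.71.

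The pairs disagreed most for 4 microRNAs. miR-380-star stood at 1.26, 2.38, 2.55 and 0.88, miR-152-star at 2.13, 2.98, 2.799 and 1.09, and miR-7a-2-star at 1.32, 1.71, 2.33 and 0.94. In these 3 stars the NP and the MBP arrays were the highest and the NP+MBP array the lowest. miR-429, of the miR-200 family that maintains epithelial identity, stood at 0.68, 1.30, 3.08 and 1.38, so that its difference of 2.40 without NP was 0.08 with NP. All 4 were among the 85 dimmest members, and miR-7a-2-star, a partner of miR-7a, did not follow it in the pair with NP.

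The MBP differences went with base composition. Through the arms of their hairpins in RefSeq, 310 of the 340 members (91.2%) could be given a G+C content. Across these 310 the Spearman correlation of G+C content with the difference was -0.35 in MBP minus control and -0.18 in NP+MBP minus NP. For the NP pairs it was 0.29 and 0.36. Within each of 4 equal classes of signal, the sign was negative in both MBP pairs. These points share arrays and probe design, and the pairs of MBP and of NP share arrays with each other. The median MBP minus control difference was 0.38 for the 60 members of 40 to 45% G+C and -0.16 for the 77 above 55%. The 30 members of up to 40% G+C had a median of 0.21 there, and held 4 of the 5 that were 2-fold lower in both pairs. The 12 highest had a median G+C content of 42.6% and the 12 lowest of 47.6%. Among the lowest were miR-32-star, with 31.8%, both miR-466b stars, with 36.7%, and miR-466c-star, with 38.1%. Among the highest was miR-615, with 77.3%. The part of base composition in any microRNA's difference was not tested.

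**Figure D5:**
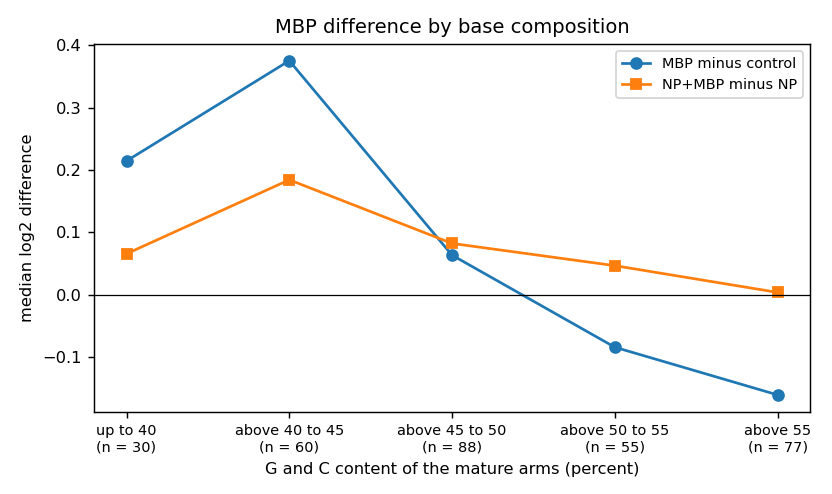
Median log2 difference of members in 5 classes of G+C content for each MBP pair, with the number of members per class. In MBP minus control the median is 0.21 at up to 40%, and the medians then go from 0.38 at 40 to 45% to -0.16 above 55%. In NP+MBP minus NP they stay between 0.00 and 0.18.

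The gene-level array gave a readout of the genes that host the microRNAs, in other samples of the same groups and normalized separately. Of a list of host genes, 21 were found there, 9 higher and 8 lower in both MBP pairs (background 31.4% and 29.5% of 17582 genes), with differences of at most 0.19 within that list. Of the genes that RefSeq places across the named microRNAs, some of them also in that list, 10 were found, 5 higher and 3 lower in both pairs, and the largest difference was 0.23, in Ift74. Sfmbt2, whose span holds the miR-466 hairpins, stood at 7.53, 7.60, 7.58 and 7.66. Ift74, an intraflagellar transport gene that hosts miR-872, stood at 8.58, 8.78, 8.81 and 8.90, and differed by 0.23 and 0.12 in the MBP pairs. Col27a1, the host of miR-455, differed by -0.10 and -0.06, and Igf2, the host of miR-483, by -0.07 and -0.07. Hnrnpk was not read by a probe set of its own symbol.

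Among 10 genes of microRNA processing, such as Drosha, Dicer1 and the Argonautes, 9 were found, with a median of 0.03. In both pairs 4 were higher and 0 lower (background 31.4% and 29.5% of 17582 genes). All 8 listed targets of miR-7 were found, 4 higher and 1 lower in both pairs, beside the same background. The lower one was the kinase Pak1, at -0.07 and -0.11. No host, processing or target gene differed by 1.5-fold in either pair. Such differences were rare on the gene array, with 28 of 17582 genes reaching 1.5-fold in a pair. Of the 44 hairpin rows of the named microRNAs, 1 had a mean over the arrays at or above 1.35. On at least 1 array 5 of them reached that value, and the highest signal on any array was 1.69.

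The labelled cell type was checked with both arrays. On the gene array Sox9, Wt1, Gata4, Fshr and Clu were above its filter of 7.50, Amh was below, and Rhox5 was not found. The annotation marks the Fshr probe set, unlike the others, as open to cross-hybridization, so its level may not be that of Fshr alone. On the microRNA array 0 of 4 erythroid rows, 0 of 6 hepatocyte and neuron rows and 1 of 6 leukocyte rows passed the filter, with miR-451, miR-122, miR-124 and miR-223 below it. Of 8 striated muscle rows 2 passed. miR-133a differed by 0.48 and 1.70 with overlapping groups, and miR-133b by 0.21 and -0.39. Of the gonadal somatic marker miR-202, the star passed, with a mean of 9.06, and miR-202 did not, with 0.60. miR-126, the endothelial microRNA, stood at 7.87, 7.67, 8.15 and 8.005, 0.28 and 0.33 higher with MBP. The smooth muscle microRNAs miR-143, at 13.40, 13.38, 13.43 and 13.33, and miR-145, at 13.90, 13.89, 13.94 and 13.94, lay near the top of the scale on every array.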

How the data were processed

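The authors deposited the microRNA values as logarithms. Base 2 (log2) was inferred from a range of -0.94 to 13.94. The submitters' processing notes name MAS5 without a version, while the file headers give the authors' gene-level RMA for the gene table's log2 signals. The method of background correction and summarisation behind the microRNA values is therefore not settled by the sources used here. The deposited workbook's 4 per-sample columns were not used. Groups came from the sample titles, with 1 array per group on each of 2 array types. 17 microRNA rows had 1 value on all 4 arrays.

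Guide and star rows were kept apart. Differences were taken per pair and counted at 2-fold and 1.5-fold. The additive model was fitted with limma 3.58.1 (lmFit, eBayes) under R 4.3.3 on all 1166 rows, with Benjamini-Hochberg adjustment. With no replicates its p-values measure only the spread between these arrays. The fit was checked on simulated data. The microRNAs named were the 12 highest and 12 lowest by the smaller of the 2 differences, the 4 with the most different pairs, up to 4 members of each list, and arm partners. Lists of host, processing and target genes were read by gene symbol, with the brightest probe set per gene. The members and all lists were chosen with earlier results of these data known. Sequences, coordinates and spans came from RefSeq GRCr8, with older names mapped to arms by hand. Alternatives were centring, quantile and cyclic loess normalization, a floor, other filters and other fits. Python 3.11.15 with numpy 2.4.6, pandas 2.3.3, scipy 1.17.1 and matplotlib 3.10.9 did the rest.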

Additional observations from a re-analysis of the deposited data

Results flagged for a closer look

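Of the 12 highest, the 12 lowest and the 4 microRNAs with the most different pairs, 3 had an MBP difference of opposite sign in the pair without NP and the pair with NP. miR-152-star differed by 0.665 without NP and by -1.88 with it, miR-380-star by 1.29 and -1.51, and miR-7a-2-star by 1.01 and -0.773. Each pair holds 1 array against 1, so these differences between the pairs were not tested. All 3 are dim star forms.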

How the results depend on the processing

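The counts depended on scaling and on the signal filter. The number of members 2-fold lower in MBP minus control was 7, and became 11 when arrays were centred, 13 after quantile normalization, 12 after cyclic loess, 11 with no filter and 2 with the filter at the 75th percentile, 5.25. The number higher there was 21, and became 13 after cyclic loess and 0 at the stricter filter. In NP+MBP minus NP, 21 higher became 32 with no filter and 1 at the stricter filter, and 19 lower became 4 at the stricter filter. In both pairs, 5 higher became 3 (centred), 1 (quantile), 1 (cyclic loess) and 0 (stricter filter), and 5 lower became 2 at the stricter filter. At 1.5-fold the counts in the same order were 57 and 21, 52 and 36, and 21 and 13. The correlation of the pairs, 0.43, was 0.297 with no filter and 0.600 at the stricter one. limma's 0 calls became 4 with centred arrays and stayed 0 in the other 8 fits. Scaling moved the median of the members by at most 0.08. The mean difference of miR-380-star, -0.11, became 0.084 with values below the filter set to it and 1.29 from MBP minus control alone, that of miR-152-star, -0.61, became 0.665 from MBP minus control alone, and that of miR-7a-2-star, 0.12, became -0.773 from NP+MBP minus NP alone. The causes were not tested. The limma fit with floored values was not used, because many of its residual variances were 0. Each group had 1 array, so no replicate block by number could be set, and the arrays of a pair were matched only by NP. The NP term of the additive fit sets the arrays with and without NP apart, and without that term the count was also 0, with 46 unadjusted p under 0.05. With 2 arrays on each side, a difference in a dim microRNA rests on probe signals close to background.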
